A study of Homo sapiens with 2 samples.

Results

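The genes CSMD1, FHIT, WWOX, CCSER1, MACROD2, LRP1B, IMMP2L, CNTNAP2 and GPC6 are very long genes, several of which lie at common fragile sites. They were taken by name, as 9 of 19229 autosomal protein-coding genes, and their cytosine methylation was read at CpG dinucleotides in 2 human acute myeloid leukaemia (AML) cell lines by whole-genome bisulfite sequencing. OCI-AML3 carries a heterozygous mutation in DNMT3A, which encodes a de novo DNA methyltransferase, and AML5 (labelled OCI-AML5) is DNMT3A wild type. Both are established lines grown in DMEM with serum, with no treatment named, and they come from unrelated leukaemias, so the mutation cannot be told apart from every other difference between the lines. Each line gave 1 library, so there are no replicates and no value below has an error between cultures.

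The 9 genes run from 900 kb (IMMP2L) to 2305 kb (CNTNAP2) and cover 14.5 Mb on 8 chromosomes. They hold 109439 of the 28217448 CpGs listed, and 90450 of these had more than 5 reads in both lines. A methylation level here is the percentage of reads calling a CpG methylated, averaged over such CpGs, and a difference is OCI-AML3 minus AML5 in percentage points. The promoter is the 2 kb on either side of the most upstream transcription start site (TSS), and the gene body is everything downstream of that, cut into 100 kb bins from the TSS. All positions are on GRCh37.

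Common fragile sites are chromosomal regions that form gaps and breaks when DNA replication is slowed, and many lie inside genes so long that a polymerase needs much of a cell cycle to cross them. FHIT and WWOX are the classical examples and are often lost in part in tumours. CpG-rich promoters are usually unmethylated, whereas the bodies of transcribed genes are usually highly methylated, and large domains of intermediate methylation are known in cultured and tumour cells. Transcription was not measured in the files used here.

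The promoters of CCSER1, GPC6 and MACROD2 were highly methylated in OCI-AML3 and nearly unmethylated in AML5, the opposite of the direction seen in most gene bodies. The 250 bases that precede the TSS are printed for these 3 and for IMMP2L, the promoter with the smallest difference in mean level over CpGs, with each CpG in capitals and each sequence read 5′ to 3′ on the strand of the gene, from the GRCh37 genome.
CCSER1: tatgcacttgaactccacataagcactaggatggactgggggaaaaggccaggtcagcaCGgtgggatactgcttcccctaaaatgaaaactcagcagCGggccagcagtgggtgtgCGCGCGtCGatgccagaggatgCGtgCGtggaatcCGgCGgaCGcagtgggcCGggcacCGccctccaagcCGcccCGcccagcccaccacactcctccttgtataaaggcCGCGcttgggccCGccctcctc
MACROD2: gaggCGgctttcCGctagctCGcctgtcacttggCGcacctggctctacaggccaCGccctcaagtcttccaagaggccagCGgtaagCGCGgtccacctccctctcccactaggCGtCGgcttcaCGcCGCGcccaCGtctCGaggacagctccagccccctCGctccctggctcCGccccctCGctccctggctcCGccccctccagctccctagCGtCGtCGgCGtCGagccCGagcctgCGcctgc
GPC6: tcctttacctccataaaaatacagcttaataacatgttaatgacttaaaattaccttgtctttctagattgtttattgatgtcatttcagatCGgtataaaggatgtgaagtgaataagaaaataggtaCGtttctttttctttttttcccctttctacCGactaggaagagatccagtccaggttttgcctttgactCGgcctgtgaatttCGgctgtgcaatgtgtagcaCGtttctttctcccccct
IMMP2L: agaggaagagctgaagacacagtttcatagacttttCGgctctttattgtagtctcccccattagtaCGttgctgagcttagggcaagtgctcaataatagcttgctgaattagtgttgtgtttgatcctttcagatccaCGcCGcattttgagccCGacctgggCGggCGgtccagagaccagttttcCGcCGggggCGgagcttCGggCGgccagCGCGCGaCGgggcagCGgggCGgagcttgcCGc

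The CCSER1 stretch (chr4:91048295-91048544) holds 18 CpGs, which averaged 81.5% in OCI-AML3 and 0.726% in AML5. In OCI-AML3 single CpGs there ran from 54.5% to 100%, whereas AML5 ranged between 0 and 6.90%. CCSER1 was printed for its large promoter difference, so the gap between these ranges describes the pick and tests nothing. Neighbouring CpGs of the same library are not replicates, and how often other stretches show such a gap was not examined. The MACROD2 stretch (chr20:13975765-13976014) holds 26 CpGs, which averaged 79.6% against 0.197%, although the lowest single CpG in OCI-AML3 was at 7.50%. The GPC6 stretch (chr13:93878810-93879059) is poor in CpGs, with 6, and its 5 covered CpGs averaged 16.6% in OCI-AML3 and 4.44% in AML5. In GPC6 the highly methylated CpGs therefore lay downstream of the printed bases. The IMMP2L stretch (chr7:111202574-111202823, minus strand) holds 19 CpGs that were listed with no methylated call among 1365 in OCI-AML3 and averaged 3.51% in AML5. With calls taken as independent, which they are not within a read, the OCI-AML3 share could be up to 0.220%.

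Across the whole 4 kb promoter, CCSER1 (coiled-coil serine rich protein 1) had 71.0% ± 26.1 methylation in OCI-AML3 against 11.7% ± 27.7 in AML5 (SD over 161 CpGs), a difference of 59.4 points. GPC6, a glypican, which is a cell-surface heparan sulfate proteoglycan, stood at 67.8% ± 28.1 against 7.79% ± 20.01 (SD over 166 CpGs), a difference of 59.98 points. MACROD2, which removes ADP-ribose from proteins, stood at 67.9% ± 28.2 against 17.8% ± 36.1 (SD over 158 CpGs), a difference of 50.1 points. These were the 3 promoters of the 9 that were higher by at least 20 points in OCI-AML3, and none was lower by as much. Among all 18887 autosomal protein-coding promoters 1.68% were higher and 8.57% lower by at least 20 points, and among the 309 promoters of genes of at least 500 kb the shares were 10.4% and 9.39%. Over all promoters, 7 had a higher difference than GPC6, 8 than CCSER1 and 16 than MACROD2.

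Many calls lay behind these promoter levels. At CCSER1, 71.9% of 5860 calls were methylated in OCI-AML3 (95% Wilson interval 70.7 to 73.0) and 10.8% of 4578 calls in AML5 (9.97 to 11.8). At GPC6 the shares were 68.6% of 7606 calls (67.6 to 69.7) and 4.81% of 6529 calls (4.32 to 5.36), and at MACROD2 they were 69.9% of 6772 calls (68.8 to 71.0) and 20.7% of 5528 calls (19.6 to 21.7). The intervals here and below treat every call as independent. A read can give calls at several neighbouring CpGs, so they are too narrow even for the sampling of reads. Fisher's exact test, two-sided at each CpG and Benjamini-Hochberg adjusted over 24454751 nuclear CpGs, called 134 CpGs higher and 7 lower in OCI-AML3 at CCSER1, 143 and 6 at GPC6, and 116 and 12 at MACROD2. The test compares these libraries, not the conditions. Over the 9 promoters it called 475 of 1287 CpGs higher (36.9%) and 151 lower (11.7%), where the shares over all nuclear CpGs were 3.86% and 14.7%. No share was taken over promoter CpGs alone. Most of the higher CpGs lay at CCSER1, GPC6 and MACROD2, while WWOX, LRP1B and IMMP2L had 1 each.

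**Figure D1:**
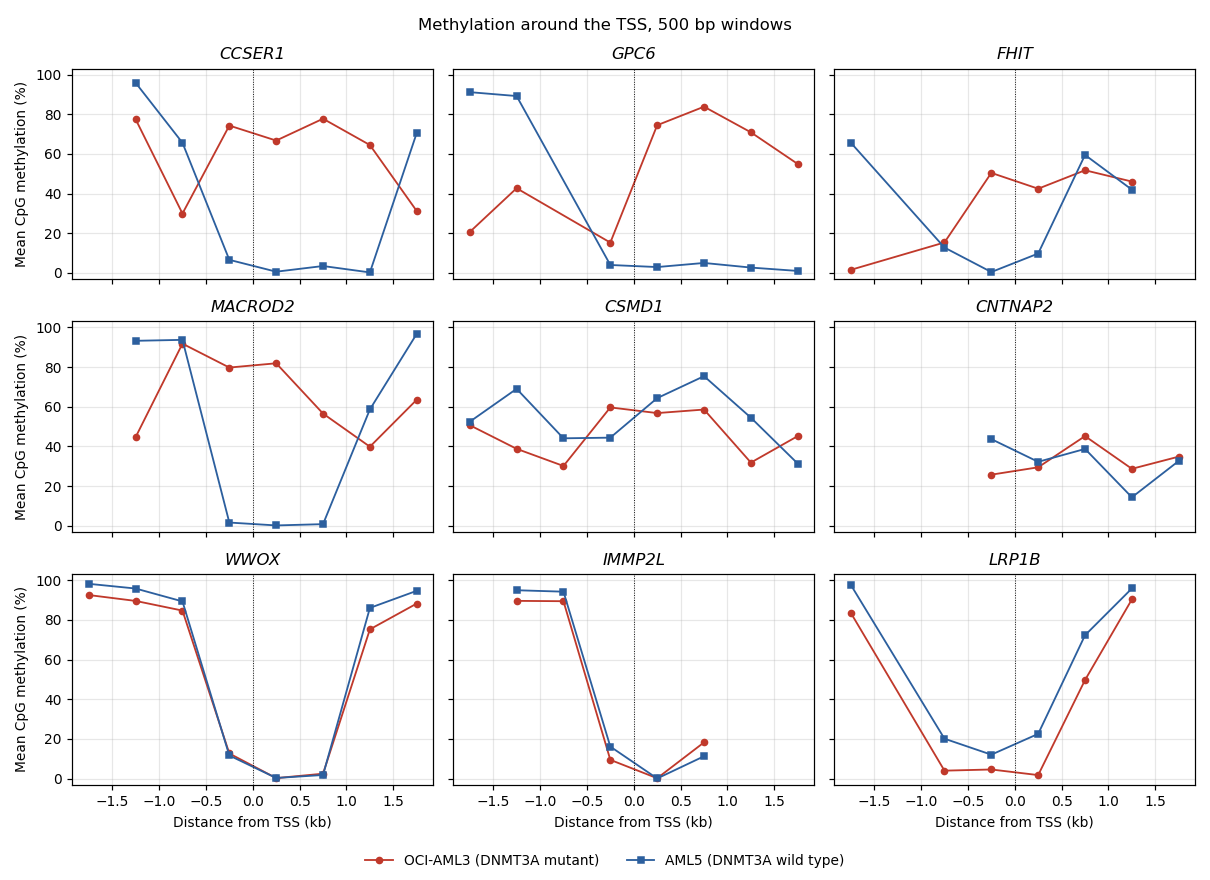
Mean CpG methylation (%) in 500 bp windows from 2 kb upstream to 2 kb downstream of the TSS (x axis, kb) of the 9 genes, for OCI-AML3 (red circles) and AML5 (blue squares), with windows of fewer than 3 covered CpGs left out. The lines separate at the TSS of CCSER1, GPC6, MACROD2 and FHIT, where AML5 is low, and run together at WWOX and IMMP2L.

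The higher methylation did not fill the promoter window, and its place differed between the genes. Within 500 bp of the TSS, MACROD2 averaged 80.9% against 0.841% in AML5, CCSER1 69.7% against 2.98%, and GPC6 60.5% against 3.19%. At CCSER1 the higher level went on downstream, with 77.7% against 3.47% in the 67 CpGs of the next 500 bp and 64.5% against 0.239% in the 19 CpGs after these, while the 3 CpGs of the last 500 bp stood at 31.2% against 70.6% and the 3 from 1000 to 501 bp upstream at 29.9% against 65.6%. At GPC6 it lay mainly downstream of the TSS, at 83.8% against 5.01% in the 500 bp that begin 500 bp after it (46 CpGs) and still 54.9% against 0.985% in the last 500 bp (30 CpGs). At MACROD2 the 8 CpGs of the last 500 bp stood at 63.5% against 96.8%. Upstream of GPC6, the 7 CpGs beyond 1 kb were also lower in OCI-AML3, with 20.6% against 91.1% in the 3 farthest. At all of these genes the difference thus changed sign within 2 kb of the TSS, and with the upstream 2 kb alone the GPC6 difference became -20.4 points, over few CpGs.

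FHIT, a diadenosine triphosphate hydrolase and a tumour suppressor of the fragile site FRA3B, had a promoter at 43.5% ± 30.9 in OCI-AML3 against 24.7% ± 31.0 in AML5 (SD over 104 CpGs), a difference of 18.7 points. The higher level lay close to the TSS on either side, and over the promoter the test called 43 CpGs higher and 9 lower. Far upstream the difference was reversed over few CpGs. The 3 farthest CpGs stood at 1.53% against 65.7%, and the next 2 at 49.7% against 74.6%. The 20 CpGs of the 500 bp before the TSS stood at 50.4% against 0.434%. In the next 500 bp the level was 42.4% against 9.76% over 37 CpGs, and beyond that the lines were within 8 points of each other until the last 2 CpGs. The FHIT levels in OCI-AML3 were thus intermediate rather than high, with 29 of the 104 CpGs over 66% and 33 under 20%. A level near 50% can come from reads of differently methylated chromosomes or cells, and the files, which give calls per CpG, cannot tell these apart.

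WWOX and IMMP2L kept a sharply bounded unmethylated start in both lines. WWOX, the WW domain oxidoreductase of the fragile site FRA16D, had 0.241% in OCI-AML3 and 0.309% in AML5 in the 54 CpGs of the first 500 bp, and its whole promoter stood at 33.3% and 35.7%. IMMP2L, a subunit of the mitochondrial inner membrane peptidase, had 0.183% and 0.0631% in the first 500 bp (61 CpGs), and 24.2% and 25.7% over the whole promoter. By share of all calls, which weights deeply read CpGs more, the differences were larger, at -8.63 points for WWOX and -8.43 for IMMP2L, and CNTNAP2 was then the smallest at -1.41. The test called 4 of 157 CpGs at WWOX and 5 of 125 at IMMP2L, in either direction.

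LRP1B, a giant receptor of the LDL receptor family, was the promoter of the 9 with the lowest difference, at -17.6 points, with 31.1% in OCI-AML3 and 48.7% in AML5. Within 500 bp of its TSS OCI-AML3 was at 2.76% and AML5 at 20.1%, so that here the wild-type line carried the partly methylated start. The test called 35 of 117 CpGs lower and 1 higher. Taken as the share of all calls instead of the mean over CpGs, the LRP1B difference was -21.3 points.

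CSMD1 and CNTNAP2 had no unmethylated start in either line. CSMD1, a membrane protein with CUB and Sushi domains that acts on complement, stood at 50.1% in OCI-AML3 and 59.8% in AML5 over its promoter, and at 57.6% and 58.7% within 500 bp of the TSS. CNTNAP2, a neuronal adhesion protein of the neurexin superfamily, stood at 34.1% and 36.2%, and at 28.2% and 36.1% near the TSS. Single CpGs nevertheless differed in both directions. The test called 55 CpGs lower and 22 higher of 170 at CSMD1, and 20 lower and 14 higher of 129 at CNTNAP2.

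The gene bodies did not always differ in the direction of their promoters. CCSER1 stood at 42.9% in OCI-AML3 and 87.2% in AML5, GPC6 at 53.1% and 86.3%, and FHIT at 60.8% and 90.3%, differences of -44.3, -33.2 and -29.5 points. These were the 3 bodies lower by at least 20 points, and none was higher by as much, where 20% of the 310 autosomal genes of at least 500 kb were lower and 0.968% higher. The other bodies differed by -11.8 points at WWOX (79.0% and 90.8%), -10.6 at CNTNAP2 (51.4% and 61.9%), -7.94 at IMMP2L (83.6% and 91.6%), -1.46 at LRP1B (82.4% and 83.9%), 7.19 at CSMD1 (68.7% and 61.5%) and 8.31 at MACROD2 (72.9% and 64.6%). The median over the 9 was -10.6 points, beside -10.5 over all genes of at least 500 kb. That median is the value of CNTNAP2, and other members lay far to either side. Of the 310 long genes, 2 had a lower body difference than CCSER1, 15 than GPC6 and 18 than FHIT. In the other direction, 18 had a higher body difference than MACROD2 and 19 than CSMD1. By the per-CpG test 17593 of 89163 body CpGs were lower (19.7%, where all nuclear CpGs gave 14.7%) and 7528 higher (8.44%, where all gave 3.86%). A share over the body CpGs of all long genes was not taken.

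**Figure D2:**
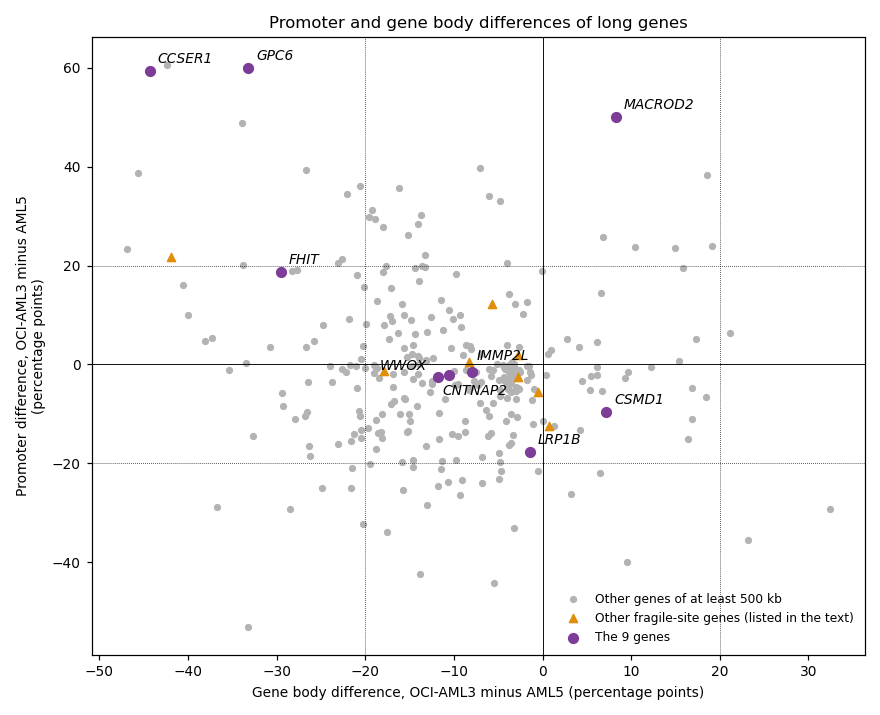
Promoter difference (y axis) against gene body difference (x axis), OCI-AML3 minus AML5 in percentage points, for 309 autosomal genes of at least 500 kb, each point a gene (purple the 9 genes, orange triangles 8 other fragile-site genes, grey the rest). Dotted lines mark 20 points in either direction, and CCSER1 and GPC6 lie at the upper left, with a higher promoter and a lower body.

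CCSER1 and GPC6 thus combined a promoter higher by at least 20 points with a body lower by at least 20, as did 13 of the 309 long genes (4.21%), and FHIT, with a promoter difference of 18.7, lay just under that limit. With 1 kb on either side of the TSS the FHIT promoter difference was 27.7 points, and with the upstream 2 kb only 23.6, both past 20. MACROD2 had the promoter difference without a lower level over its whole body. Of the 309 long genes, 1 had a higher promoter difference than GPC6 and 2 had a lower body difference than CCSER1.

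Along the genes, 39 of 147 bins with at least 50 covered CpGs were lower by at least 20 points in OCI-AML3 (26.5%) and 9 were higher by as much (6.12%). Over all autosomal 100 kb bins the shares were 11.7% and 2.09%, and over bins of genes of at least 500 kb they were 20.8% and 3.68%. The lower bins were 15 of 15 in CCSER1, 9 of 15 in FHIT, 9 of 12 in GPC6, 5 of 23 in CNTNAP2 and 1 of 21 in MACROD2, and the higher bins were 5 of 21 in CSMD1 and 4 of 21 in MACROD2. In OCI-AML3 53 bins were under 50% methylated (36.1%, where all autosomal bins gave 21.4%), and in AML5 none was (all autosomal bins gave 1.2%). Bins of AML5 at 80% or more split in OCI-AML3, with 30 of 77 under 50%, 42 at 70% or more and 5 between.

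**Figure D3:**
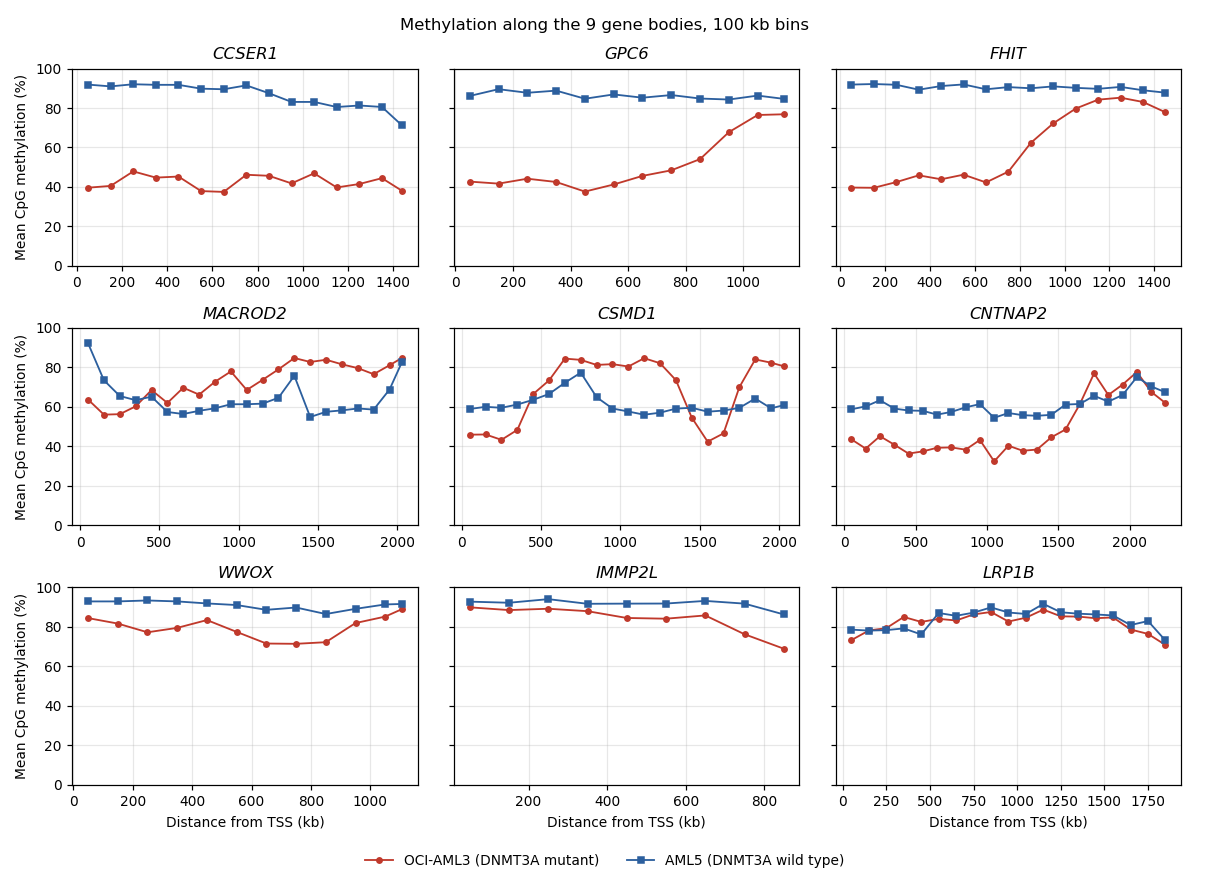
Mean CpG methylation (%) in 100 kb bins against distance from the TSS (kb) along the 9 genes, for OCI-AML3 (red circles) and AML5 (blue squares), for bins with at least 50 covered CpGs. OCI-AML3 stays near 40% through CCSER1, climbs from near 40% to over 75% along FHIT and GPC6, and passes above and below AML5 along CSMD1, MACROD2 and CNTNAP2.

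CCSER1 was low from end to end in OCI-AML3. Its 15 bins ran from 37.4% to 47.9% there, while in AML5 the first 9 bins averaged 90.8% and the last 6 averaged 80.9%. The largest bin difference was in the first 100 kb (chr4:91048545-91148544), with 39.6% against 91.9%, and the smallest in the last bin, with 38.0% against 71.2%, where AML5 was itself lower. The low level was not bounded by the gene. The 100 kb upstream of the TSS averaged 38.5% against 90.2% and the 100 kb after the gene end 36.8% against 66.7%. By share of calls the body stood at 44.1% (95% Wilson interval 43.8 to 44.4) and 87.5% (87.3 to 87.6).

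FHIT and GPC6 each held a boundary inside the gene in OCI-AML3 that AML5 lacked. The low level before that boundary was not confined to the gene. The 100 kb upstream of the TSS averaged 32.9% against 83.5% at FHIT and 38.4% against 87.3% at GPC6. The segment limits given in this and the following paragraphs were placed after the profiles were seen. In FHIT the first 800 kb averaged 43.5% in OCI-AML3, with bins from 39.5% to 47.8%, and the stretch from 1000 to 1400 kb averaged 83.0%, with bins from 79.7% to 85.2%. The steepest step lay between bins 8 and 9, 14.6 points, while AML5 stayed between 87.8% and 92.2% in every bin. The difference therefore went from -47.6 points over the first 800 kb to -6.89 points over the later stretch of the same gene. The bin with the lowest difference was chr3:61037134-61137133, at 39.5% against 92.2%. Of the 4213 covered CpGs in the first 800 kb 60.5% were called lower, and of the 2444 in the later stretch 8.76%.

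In GPC6 the first 800 kb averaged 43.1% against 87.1% in AML5, and the last 3 bins averaged 74.0% against 85.1%. Bins of AML5 stayed between 84.3% and 89.5%. The steepest step in OCI-AML3, 13.7 points, lay between bins 9 and 10, about 900 kb into the gene. The bin with the lowest difference was chr13:93979060-94079059, at 41.7% against 89.5%, and the last bin of the gene had the highest, at 76.8% against 84.6%. The median depth per bin, as a multiple of the autosomal median of the same line, was 0.393 to 0.571 in the first 800 kb and 0.571 to 0.75 in the last 3 bins of OCI-AML3. In FHIT the corresponding depths were 0.536 to 0.679 in the first 800 kb and 0.571 to 0.643 from 1000 to 1400 kb. What part depth has in either step was not tested.

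MACROD2 had the widest range of AML5 bins of the 9 genes, from 54.8% to 92.3%, and the lines ran in opposite ways over part of it. AML5 stood at 92.3% in the first 100 kb, at 67.4% over the next 300 kb and at 57.6% from 1400 to 1900 kb, before reaching 82.8% in the last bin. OCI-AML3 was at 63.7% in the first 100 kb, 57.5% over the next 300 kb, 81.0% from 1400 to 1900 kb and 84.8% in the last bin. The difference was thus -28.6 points in the bin that follows the highly methylated promoter (chr20:13976015-14076014) and 23.3 points from 1400 to 1900 kb. The highest bin was chr20:15376015-15476014, at 82.7% against 54.8%, and 4 consecutive bins were higher by at least 20 points. The whole-body difference of 8.31 points averages these opposite parts.

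CSMD1 alternated in OCI-AML3 between low and high stretches while AML5 stayed mostly near 60%. The first 400 kb averaged 45.9% against 59.9%, the stretch from 600 to 1400 kb 81.4% against 62.8%, the stretch from 1400 to 1700 kb 47.8% against 58.4%, and the stretch from 1800 kb to its end 82.7% against 61.7%. The steepest step of any of the 9 genes in OCI-AML3 was here, 23.4 points between bins 17 and 18. The lowest bin difference was -16.2 points (chr8:4552495-4652494) and the highest 28.7 points (chr8:3652495-3752494, 84.7% against 56.0%). CSMD1 was deeply read, at 0.821 to 1.29 times the autosomal median for OCI-AML3 and 1.16 to 1.45 times for AML5, and these levels rest on 19027 CpGs.

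CNTNAP2 was divided once. Its first 1600 kb averaged 40.4% against 58.4% in AML5, whereas the next 700 kb averaged 68.6% against 67.5%. All 16 bins of the first part were under 50% in OCI-AML3, and all 16 were lower than in AML5, by 11.4 to 22.1 points. The lowest difference was in chr7:146813094-146913093, at 32.4% against 54.5%, which was also the lowest level of the 147 bins in either line. The highest was in chr7:147513094-147613093, at 76.9% against 65.6%, a little beyond the boundary.

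WWOX, IMMP2L and LRP1B stayed above 68% in every bin of both lines. WWOX was lower in OCI-AML3 in each of its 12 bins, most in the stretch from 600 to 900 kb, with 71.7% against 88.1%, and least in the last bin, with 89.0% against 91.6%. IMMP2L differed by -7.68 to -2.89 points in the bins of its first 700 kb (87.2% against 92.5%), and its last 200 kb stood at 72.1% against 88.6%. LRP1B had the smallest bin differences of the 9 genes, from -6.53 to 6.35 points, and both of its profiles shared a maximum in the same bin, at 88.7% and 91.6%. LRP1B was slightly higher in OCI-AML3 over its first 500 kb, at 79.97% against 78.1%, and lower beyond.

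Exons were compared with all introns of the same gene, not with the nearest ones. Exonic CpGs numbered from 23 in IMMP2L to 418 in CSMD1, and the exon difference had the sign of the intron difference in each of the 9 genes. In CCSER1 the exons stood at 45.5% against 85.9% and the introns at 42.9% against 87.2%. The gap between exons and introns was widest in GPC6 in OCI-AML3, where 55 exonic CpGs stood at 69.1% against 90.9% and the introns at 53.0% against 86.3%. Exons of CSMD1 differed by 12.1 points and its introns by 7.08.

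Apart from the promoters, short unmethylated stretches occurred inside the genes in OCI-AML3. Of 2930 windows of 1 kb with at least 10 covered CpGs, more than 2 kb from the TSS, 32 were under 20% in OCI-AML3 (1.09%) and none in AML5. Over genes of at least 500 kb these shares were 2.39% and 0.560%, so such windows were no more frequent in the 9 genes than in other long genes. They lay in CNTNAP2 (13), CSMD1 (6), WWOX (6), GPC6 (4) and CCSER1 (3), and none in FHIT, MACROD2, LRP1B or IMMP2L. Of the 32, 13 were at 60% or more in AML5, and 3 had an annotated TSS within 1 kb, among them GPC6-AS2, an antisense transcript, beside the GPC6 window 608 kb from the TSS (17.9% against 80.1%).

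**Figure D4:**
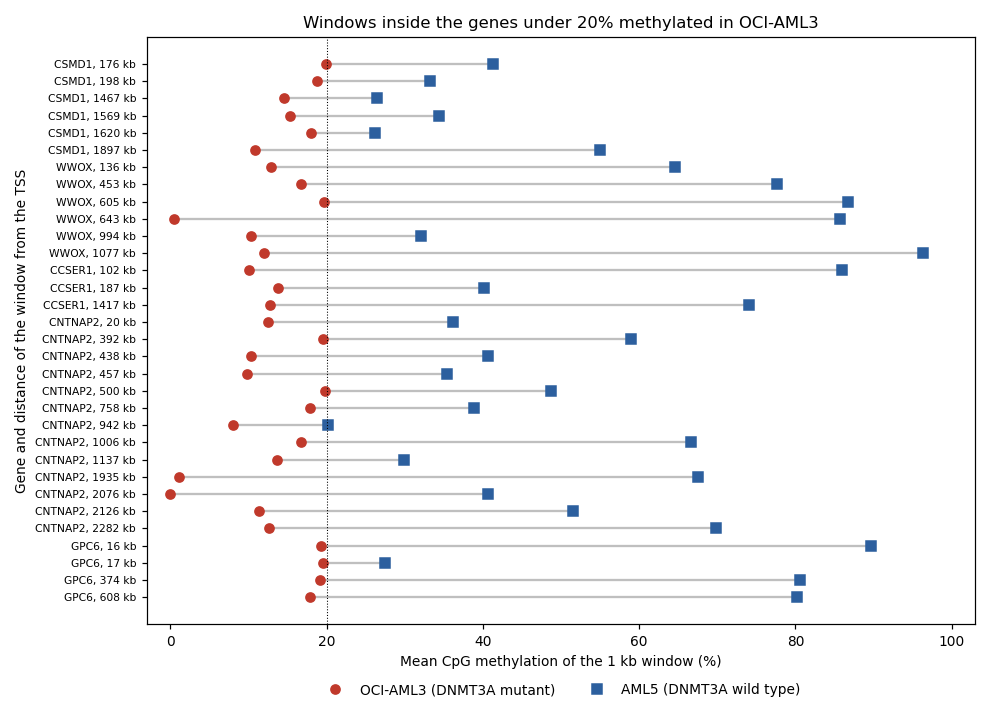
Mean CpG methylation (%, x axis) of the 32 windows of 1 kb under 20% in OCI-AML3 (red circles), with AML5 (blue squares) on the same row, labelled by gene and distance from the TSS. The dotted line marks 20%, and the WWOX window 643 kb from the TSS is at 0.449% in OCI-AML3 and 85.7% in AML5.

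The single windows named below were picked by their levels, so the calls and intervals at them describe the pick and test nothing. The window of WWOX 643 kb from its TSS (chr16:78776297-78777296), inside an intron, had the largest difference of the 32. Its 22 CpGs averaged 0.449% against 85.7%, and 21 were called lower. By share of calls it stood at 0.446% of 673 (95% Wilson interval 0.152 to 1.30) and 88.6% of 924 (86.4 to 90.5). The WWOX bin that holds it averaged 71.5% in OCI-AML3, so the window was a dip in methylated surroundings. The densest 300 bases of it (chr16:78776464-78776763), shown because 14 CpGs there averaged 0.155% against 89.4%, read as follows, with CpGs in capitals.
WWOX internal: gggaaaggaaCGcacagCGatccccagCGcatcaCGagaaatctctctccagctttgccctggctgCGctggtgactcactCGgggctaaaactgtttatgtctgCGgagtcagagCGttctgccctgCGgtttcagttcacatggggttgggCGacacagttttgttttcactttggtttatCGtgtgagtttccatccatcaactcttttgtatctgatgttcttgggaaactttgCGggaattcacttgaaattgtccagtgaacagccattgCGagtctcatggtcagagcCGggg

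A further WWOX window, 1077 kb from the TSS, stood at 12% against 96.4% over 15 CpGs. In CCSER1 the window 102 kb from the TSS stood at 10.0% against 85.9%, and all 10 of its CpGs were called lower. In CNTNAP2 the window at 1935 kb stood at 1.16% against 67.6%. The window at 2076 kb was listed with no methylated call among 286 in OCI-AML3, against a level of 40.7% in AML5. With calls taken as independent, that allows an OCI-AML3 share of up to 1.05%. Both CNTNAP2 windows lie in the part of the gene that was as methylated in OCI-AML3 as in AML5. No CpG of these 5 windows lies in an exon of the gene.

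Some of the 9 genes hold other protein-coding genes. FLRT3, a leucine-rich repeat transmembrane protein, lies on the opposite strand in MACROD2, and the 28 CpGs near its own TSS stood at 47.2% in OCI-AML3 and 46.6% in AML5. LRRN3, a neuronal leucine-rich repeat protein inside IMMP2L, stood at 82.5% and 94.1% over 16 CpGs. These are single means over the CpGs near each TSS, and a shorter unmethylated stretch within them was not looked for.

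Because fragile-site genes are often deleted in tumour cells, read depth was examined along each gene. A CpG on the autosomes had a median of 28 calls for OCI-AML3 and 31 for AML5, from 902802339 and 894828667 calls in all. Bins of the 9 genes ran from 0.321 to 1.36 times that median in OCI-AML3, whereas AML5 ranged between 0.516 and 1.45 times, so no bin was without reads. Bins under 0.5 numbered 25 in OCI-AML3 (17.01%, where all autosomal bins gave 10.3%) and none in AML5 (all gave 1.92%). They lay in CCSER1 (10), LRP1B (9), GPC6 (5) and MACROD2 (1). CCSER1 and LRP1B were also the genes with the least GC, 34.0% to 36.4% and 33.6% to 35.9% of bases per bin, and low depth from GC and from copy number cannot be told apart here. Of these 25 bins 22 were lower in OCI-AML3 by any amount, as were 108 of all 147 bins. With relative depth restricted to 0.5 to 1.5 in both lines the bins lower by at least 20 points were 24 of 122 (19.7%) in place of 39 of 147. What part depth has in the lower levels was not tested. The ratio of the relative depths of the lines was between 0.524 and 1.46 in every bin, with the lowest in CCSER1 and the highest in CNTNAP2.

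At a finer scale, 4 runs of at least 20 consecutive CpGs had no call in OCI-AML3 while AML5 was read, and none had the reverse. In WWOX, 3 runs lay close together about 241 kb from the TSS, within an intron (chr16:78373929-78384902). Over this span of 10.97 kb, 92 of 106 CpGs had no call in OCI-AML3 and 2 of 106 in AML5, with 14 calls against 1544. In CCSER1, 25 consecutive CpGs over 3.92 kb of an intron (chr4:91931669-91935591) had no call in OCI-AML3 and 336 in AML5. In AML5 92.7% of the WWOX calls and 86.6% of the CCSER1 calls were methylated. Such runs occurred over all autosomes 157 times in OCI-AML3 and 187 times in AML5, and what these absences of reads come from was not tested.

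Among 8 other long genes known from common fragile sites (DAB1, NBEA, RORA, DLG2, CTNNA3, DPYD, LSAMP and PDE4D), 7 bodies were lower in OCI-AML3, with differences from -42.0 to 0.71 points and a median of -4.24. A body lower by at least 20 points was found in 1 of 8, NBEA, beside 3 of the 9. Their promoters differed from -12.4 to 21.8 points, and 1 of 8 was higher by at least 20 points, again NBEA, beside 3 of the 9. NBEA, an anchoring protein of membrane traffic, combined a promoter of 30.8% against 8.98% with a body of 45.9% against 87.8%, as CCSER1 and GPC6 did with larger promoter differences.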

How the data were processed

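Genomic DNA of both lines was converted with bisulfite in 2 rounds and sequenced in pairs. Per the labels and methods, the authors aligned reads to hg19 with Bismark on Bowtie 0.12.8. The deposited files hold methylated and unmethylated read counts per CpG with both strands combined. Whether duplicate reads were removed is not given in the sources used here, and reads without molecular identifiers are not independent molecules.

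CpGs with at least 6 reads in both lines were used. Levels were averaged per promoter, body and bin, with gene models from GENCODE 44 lifted to GRCh37, whose TSS can differ from the study's annotation. Fisher's exact test was run per CpG (Python 3.11.15, scipy 1.17.1, numba 0.67.0), with calls at an adjusted P below 0.05, and was checked on simulated counts. With 1 library in each line, larger differences have no test, and 20 points was the threshold for a call.

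The genes and lists were chosen with earlier results of these data known. All 9 genes, the bins with the lowest and highest difference in each, nested genes and the comparison genes were named by rule, and some genes that the rules would name are not reported here. The 3 starts and 1 control shown as sequence followed a rule, whereas the internal WWOX stretch, single windows and segment limits were chosen after their values were seen. Alternatives were another coverage minimum, share of calls, bin size, grid, promoter span, canonical TSS and depth limits.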

Additional observations from a re-analysis of the deposited data

How the results depend on the processing

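Read minimum, chromosome grid, exclusion of exons and canonical TSS kept the main values close. The count of bins lower by at least 20 points was 39 of 147, and became 80 of 292 with 50 kb bins, 20 of 77 with 200 kb bins, 69 at 10 points and 24 of 122 with relative depth restricted to 0.5 to 1.5. Bins higher numbered 18, 5 and 23 under the first 3 of these, beside 9. The median promoter difference was -3.19 points with the upstream 2 kb only and -2.28 without CCSER1, MACROD2 and GPC6, beside -1.52. The GPC6 difference became -20.4 with the upstream 2 kb only. Promoters lower by at least 20 points numbered 1 by share of calls (LRP1B) and 1 with the upstream 2 kb only (GPC6), beside 0. The median body difference was -9.53 by share of calls and -4.70 without FHIT, CCSER1 and GPC6, beside -10.6. Bins at low depth in OCI-AML3 numbered 0 at a threshold of 0.25, 14 over CpGs read in both lines and 0 by the ratio of the lines, beside 25. Internal windows numbered 2 with at least 20 CpGs and 5 at a level under 10%, beside 32, and runs without calls numbered 8 at a minimum of 10 CpGs, beside 4. The ratio of the lines, the runs and the medians without named genes were chosen after seeing the data. Changes in size of bin, window or run change what is counted, and the cause of the other changes was not tested. Of 72 values for single genes, 39 stayed within their interval, 32 moved and 1 reversed.

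No paired analysis was possible because each line has 1 library, and for the same reason no replicate could be left out. Depth limits single CpGs, most of all in CCSER1, where the median was 18 reads in OCI-AML3.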

Other observations

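Beyond the 9 genes and NBEA, other genes of at least 500 kb combined a promoter higher by at least 20 points with a body lower by at least 20 points in OCI-AML3. They were picked out by these values, so the values describe them and were not tested. PTPRG, a receptor tyrosine phosphatase, had a promoter of 59.4% against 10.5% and a body of 58.4% against 92.3%. GPC5, a glypican like GPC6 and also on chromosome 13, had a promoter of 31.3% against 11.1% and a body of 44.6% against 78.4%. PTPRM had the lowest body difference of the genes named here, with 42.5% against 89.4%, and a promoter of 26.1% against 2.83%. Further genes were STXBP5L, RGS6, NKAIN2, CCDC178, AGAP1 and ZNF804B, with promoter differences from 20.6 to 39.4 points.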
